A study of Drosophila melanogaster with 3 samples.

Results

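The genes described here are CG14100, Ugalt, px, PNPase, CG1888 and larp, which carried the strongest binding of the CG33213-eGFP protein at a protein-coding promoter that is not shared with a divergent coding gene. They were chosen by the signal of their peaks: each has a transcription start site (TSS) within 500 bp of one of the 25 strongest peaks of the optimal peak list, and no protein-coding gene starts on the opposite strand within 500 bp of that TSS, facing away. They are 6 of 18164 annotated genes, or of 13945 protein-coding genes, and of 3482 protein-coding genes with any optimal peak within 500 bp of a TSS. Because signal chose them, their signals and ranks are given as a description and no test was made of them. A 7th gene met the same criteria, ph-p, a Polycomb group gene whose peak ranked 6 with its summit 489 bp from the TSS. It was not counted with the 6 genes.

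The assay was ChIP-seq, the sequencing of DNA precipitated together with a chromatin protein. Whole embryos of Drosophila melanogaster, both sexes mixed and aged 0 to 24 h, came from a transgenic line that stably carries CG33213 with enhanced GFP at its C terminus. An anti-GFP antibody was used for the precipitation, although the antibody entry of the labels names CG33213. There were 3 biological replicates of 1 group, so no conditions were compared, and an embryo of this age range mixes many cell types and stages. The optimal list holds the strongest entries of a relaxed list of 30000 called on the pooled replicates, 4411 peaks besides those of the 6 genes. Another relaxed list of 30000 entries was given for each replicate. Peak lists carry no read counts, so the depth of each replicate is unknown.

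ChIP-seq peaks mark where a protein, or a complex that holds it, was crosslinked to DNA, and the summit is the position of highest signal. Core promoters surround the TSS and recruit RNA polymerase II. Many Drosophila genes have alternative promoters, so a peak can lie at the start of some transcripts and inside an intron or a 5′ untranslated region (UTR) of others. Promoters of broadly expressed fly genes often hold short sequence words such as the DNA replication-related element (DRE), bound by DREF, and motif 1, bound by M1BP. The 6 genes have varied roles. Ugalt encodes a UDP-galactose transporter, PNPase a mitochondrial polynucleotide phosphorylase, an enzyme of RNA degradation, and larp a La-related RNA-binding protein. The gene px (plexus) acts in wing vein patterning. The files and annotation give no role for CG14100 and CG1888.

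Sequences around the summit are shown for 3 genes whose windows lie outside annotated exons, on the strand of the gene, 5′ to 3′, from the dm6 genome. Capitals mark the span that holds the optimal summit and the summits called in the 3 replicates separately, so they show how narrowly the replicates placed the strongest sites. The CG14100 window is chr3L:19590542-19590692, the Ugalt window is chrX:2703853-2703966 and ends at the base before the upstream TSS, and the larp window is chr3R:28326529-28326679, all 3 on the minus strand.
CG14100: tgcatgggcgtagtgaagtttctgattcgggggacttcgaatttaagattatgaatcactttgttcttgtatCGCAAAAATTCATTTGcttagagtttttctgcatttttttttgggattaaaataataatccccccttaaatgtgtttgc
Ugalt: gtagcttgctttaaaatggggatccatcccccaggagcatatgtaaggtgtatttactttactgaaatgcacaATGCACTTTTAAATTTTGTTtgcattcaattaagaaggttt
larp: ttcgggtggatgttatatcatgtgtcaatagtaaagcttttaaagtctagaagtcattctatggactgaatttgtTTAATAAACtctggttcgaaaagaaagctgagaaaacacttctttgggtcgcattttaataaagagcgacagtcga
The capitals span 16 bp at CG14100, 20 bp at Ugalt and 9 bp at larp. The printed windows held 34.4%, 35.1% and 35.1% G and C.

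The 6 promoter peaks ranked 1, 2, 4, 8, 10 and 23 in the optimal list. Signal here means the peak caller's score, whose scale differs from list to list. The strongest peak of all, at CG14100, had a signal of 2184, which is 14.0 times the optimal list's median of 156. At Ugalt the signal was 2105, 13.5 times the median. The px peak followed with 1872, 12.0 times the median. PNPase had 1512 and CG1888 had 1360, 9.70 and 8.73 times the median. The larp peak, with 1006 and 6.45 times the median, lay close to the limit: the peak of rank 25, a distal peak, had 943. The next peaks at such promoters outside the limit were those of mRpL41, CG13921 and Sox14, ranked 30, 31 and 32 with signals of 909, 909 and 901. The signal fell steeply among the first 10 peaks and slowly after that, so the limit of 25 runs through a range of close values. Of the 25 strongest peaks, 11 were distal, 4 lay at divergent coding promoters, 3 at non-coding promoters and 7 at other coding promoters, the 6 genes and ph-p.

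**Figure D1:**
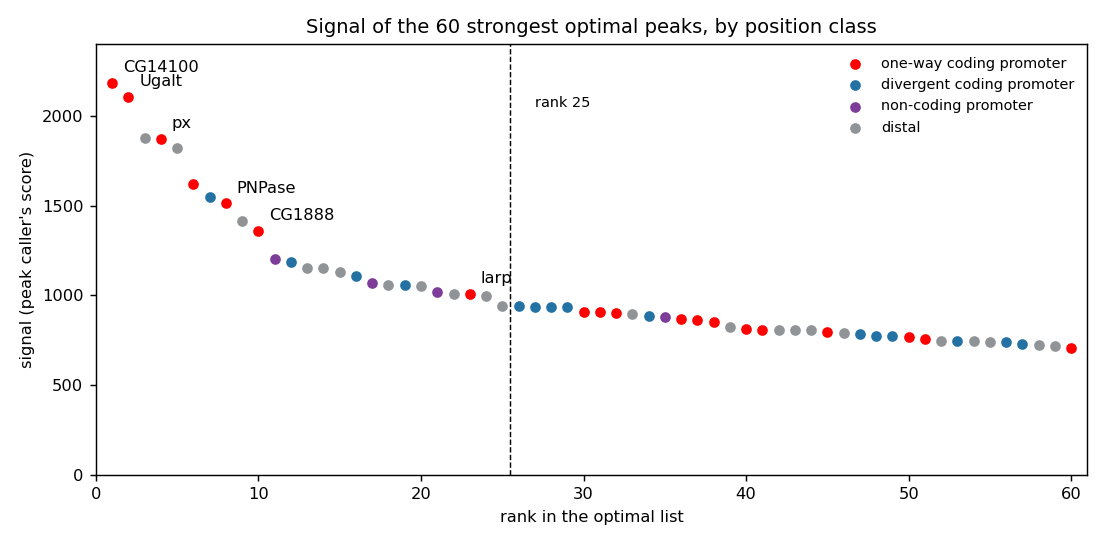
Signal of the 60 strongest optimal peaks (vertical axis, the peak caller's score) against their rank (horizontal axis), coloured by position class, with the 6 genes named and a dashed line after rank 25. CG14100 and Ugalt stand highest, at 2184 and 2105, larp at 1006 lies just above the limit, and the unnamed red point of rank 6 is ph-p.

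The 3 replicates placed the 6 peaks in much the same order. In replicates 1, 2 and 3 CG14100 ranked 1, 1 and 2. Ugalt ranked 3, 3 and 1, so it was the strongest peak of replicate 3. The ranks of px were 2, 6 and 3. PNPase ranked 8, 7 and 8 and CG1888 ranked 9, 9 and 10, which makes these the steadiest ranks below the first 3 genes. The larp peak ranked 24, 42 and 16 and varied most, and in replicate 2 it was the only one of the 6 outside the 25 strongest. All 6 were among the 100 strongest in every replicate. The replicates were also inputs of the pooled list that chose the genes, so these ranks do not stand apart from the choice.

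Signals were set beside each other across lists only as multiples of a median of the same list, taken over as many of its strongest entries as the optimal list holds. CG14100 had 13.3, 13.8 and 13.3 in replicates 1, 2 and 3, or 13.5 ± 0.289 (SD, n = 3). For Ugalt the multiples were 12.2, 11.4 and 15.5, or 13.0 ± 2.17 (SD, n = 3), with replicate 3 the highest. The ranges of CG14100 and Ugalt overlap, so their order is not separated by the replicates. The multiples of px were 12.6, 9.68 and 12.3, or 11.5 ± 1.61 (SD, n = 3), and replicate 2 was the low one. That low value lies inside the range of PNPase, which had 9.08, 9.29 and 9.95, or 9.44 ± 0.454 (SD, n = 3). CG1888 followed with 8.05, 7.92 and 9.32, or 8.43 ± 0.773 (SD, n = 3), again overlapping PNPase. Within each replicate, however, px was above PNPase and PNPase above CG1888. The multiples of larp were 6.15, 5.25 and 6.94, or 6.11 ± 0.846 (SD, n = 3), and none of its 3 values reached the lowest value of any of the other 5 genes. In replicate 2 the multiple was the lowest of the 3 for 4 of the 6 genes, Ugalt, px, CG1888 and larp.

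Replicate summits fell within 25 bp of the optimal summit in every case. Counted towards higher coordinates, their offsets in replicates 1, 2 and 3 were -12, 1 and 3 bp at CG14100 and 2, 0 and -17 bp at Ugalt. The offsets at px were 7, 0 and 10 bp, and those at PNPase were -1, -11 and -9 bp. CG1888 had the widest spread, with 25, -2 and -5 bp, which replicate 1 sets, and larp the narrowest, with 0, -8 and -7 bp. The SD over the 3 replicates was 8.14, 10.4, 5.13, 5.29, 16.5 and 4.36 bp for the genes in order of rank, with a median of 6.72 bp. The same SD had a median of 22.4 bp over 1786 of the 1859 other optimal peaks at promoters without a divergent coding partner, those matched within 150 bp in all 3 replicates. All of the other peaks except that of ph-p ranked below larp, and the part of peak strength in that contrast was not tested. The 6 optimal intervals were 329 to 372 bp wide, against a list median of 384 bp.

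**Figure D2:**
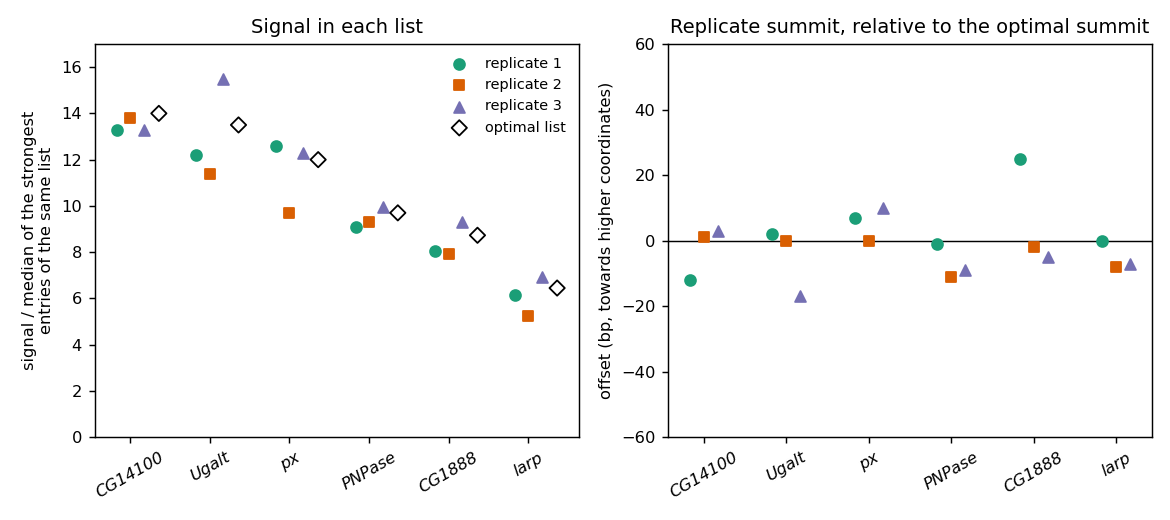
Left, signal of each promoter peak as a multiple of the median of the strongest entries of the same list, per replicate and in the optimal list. Right, offset of each replicate summit from the optimal summit in bp. The larp values lie below those of the other 5 genes, from 5.25 to 6.94 in the replicates, and no offset exceeds 25 bp.

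All 6 genes lie on the minus strand, as do 50.2% of protein-coding genes. CG14100 (FBgn0036889) spans 3L from 19589072 to 19590524, with 1 TSS and the summit at 19590617, in intergenic sequence 93 bp upstream. Ugalt spans X from 2701124 to 2703852, and its summit at 2703891 is intergenic too, 39 bp upstream of one TSS and 146 bp upstream of the other, which lies 107 bp further into the gene. At px, which spans 2R from 22494297 to 22562065, the summit at 22514289 lay 190 bp upstream of the nearest TSS. PNPase spans 3R from 31401560 to 31405452, and its summit at 31404669 is the only one of the 6 downstream of the nearest TSS, by 71 bp. CG1888 spans 2R from 9541947 to 9548135, with the summit at 9547185, 227 bp upstream of the nearest TSS. The larp gene spans 3R from 28318162 to 28336440, and its summit at 28326604 lay 340 bp upstream of the nearest TSS. The position had a median of 142 bp upstream over the 6 genes and of 64 bp upstream over the 1859 other peaks, and 83.3% and 81.8% of the summits lay upstream.

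In 4 of the 6 genes the strong peak stood at a downstream alternative start, and the upstream-most TSS carried far less signal or none. Lower signal at the other starts was likely because the peaks were chosen for their strength. The same pattern was not counted over other genes, so the 4 of 6 is only a description. The px peak stood at the most downstream of 3 TSSs, which starts 1 annotated transcript, and in an intron of the other 5 transcripts. The upstream-most px TSS, at 22562065, starts 4 transcripts and lies 47776 bp from that summit. It had an optimal peak of its own, ranked 2097, whose summit lay 5 bp from the TSS, in the 5′ UTR, with 8.56% of the signal of the strong peak. The px TSS between them, at 22546558, had only a relaxed entry of rank 16708, with 2.04%. The larp gene has 6 TSSs, and its peak stood upstream of the last pair, at 28326264 and 28326241, in an intron of the 5 transcripts that start further upstream. Its upstream-most TSS, at 28336440, had an optimal peak of rank 2172 at 57 bp, with 15.6% of the signal. The larp TSS at 28335541, start of 2 transcripts, had another of rank 2423 at 150 bp, with 14.7%. At the larp TSS at 28331218 a relaxed entry of rank 8843 reached 5.81%, and at 28328283 neither list had an entry within 500 bp.

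The other 2 genes of this kind have starts close together. CG1888 has TSSs at 9546958 and 9548135, each with 2 transcripts, and the peak lay between them, nearer to the downstream one and in a 5′ UTR exon of the transcripts that start upstream. Its upstream TSS, 950 bp from the summit, had only a relaxed entry of rank 9483 at 130 bp, with 4.09% of the signal. PNPase has TSSs at 31405452, 31404740 and 31404568. Its summit lay between the last pair, 71 bp downstream of the former and upstream of the latter, in a 5′ UTR exon of 2 transcripts and an intron of 1. The upstream-most PNPase TSS, 783 bp away, had no entry of either list within 500 bp. Ugalt, with starts 107 bp apart, and CG14100, with 1 start, leave no such distinction to be read at this resolution. Whether each TSS is used in these embryos was not measured.

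**Figure D3:**
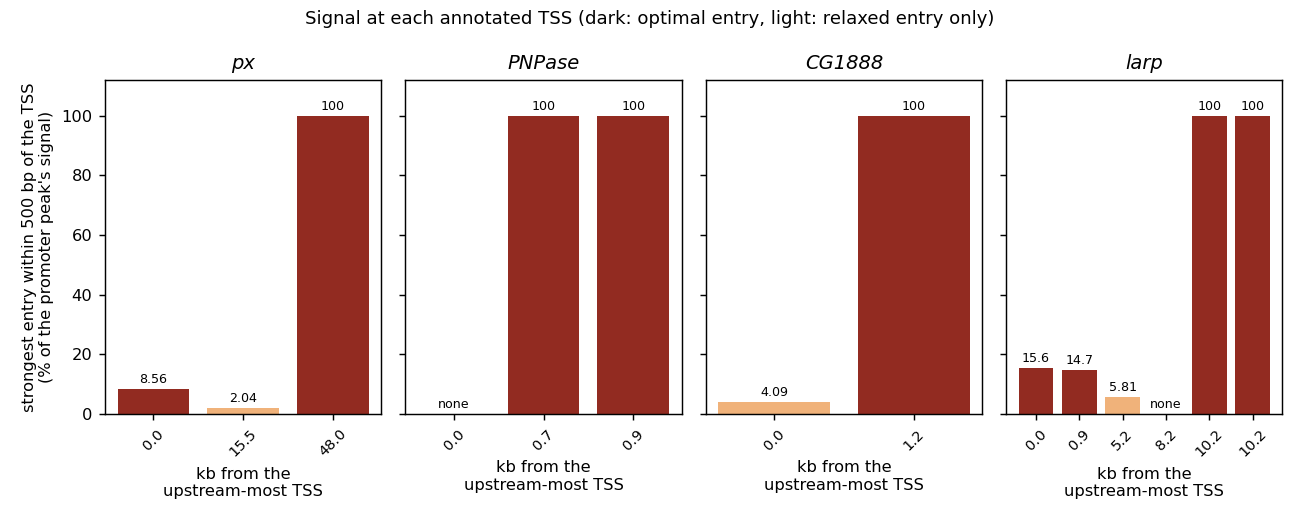
Signal of the strongest entry within 500 bp of each TSS of px, PNPase, CG1888 and larp (vertical axis, percent of the promoter peak's signal), by distance of the TSS from the upstream-most one in kb. Dark bars are optimal entries and light bars relaxed entries only. The upstream-most TSS stays at or below 15.6% in all 4 genes.

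The single-gene character of 2 of the promoters depends on the distance that defines it. The TSS of eIF2Bbeta, a gene for a subunit of the eIF2B translation initiation factor that is transcribed away from Ugalt, lies 719 bp from the Ugalt TSS and 680 bp from the summit. The TSS of Gprk2, a G protein-coupled receptor kinase gene, lies 505 bp from the PNPase TSS and 576 bp from its summit, and Gprk2 overlaps the 5′ end of PNPase by 208 bp. Neither had an optimal or relaxed summit within 500 bp of its own TSS. For the other 4 genes the nearest coding TSS that faces away was at least 8564 bp from the TSS nearest the summit. That measure leaves out their other starts. CG11362 faces away from the upstream-most px TSS across a gap of 241 bp, and that px TSS lies 47776 bp from the strong summit. With a limit of 1000 bp on divergent partners of the TSS nearest the summit, a distance chosen after seeing the data, 4 of the 6 genes would remain.

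From 10 kb before each gene to 10 kb after it, the 6 regions held 21 optimal summits, 6 of them the promoter peaks. CG14100 had 1 other summit, Ugalt and PNPase had none, px had 6, CG1888 had 3 and larp had 5. These 15 ranked 722 to 3717 and reached 6.07% to 26.8% of the promoter signal of their gene, so the promoter peak was the strongest site of each region, as the choice by rank made likely. Of the 15, 6 lay within 500 bp of a TSS and 9 in introns, and these groups overlap. The summits at 9546597 in CG1888 and 28335691 in larp belong to both, and the intergenic ones at 9541740 and 28345481 to neither. In all 3 replicates, 14 of the 15 had a summit within 150 bp, and 9 were, in every replicate, among as many of the strongest entries as the optimal list holds. Among 3476 other protein-coding genes with an optimal promoter peak, the median number of other optimal summits was 1, or 0.469 per 10 kb. The promoter peak was the strongest site of its region at 54.4% of these other genes. No other optimal summit was present at 22.4% of them, against 33.3% of the 6 genes. The densities of the 6 genes were 0.466, 0, 0.684, 0, 1.15 and 1.31 per 10 kb in order of rank.

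The largest gap to the next site was at PNPase, where the promoter peak was 34.7 times the strongest other entry of the pooled list, and at Ugalt, where it was 32.7 times. For CG14100 the ratio was 16.5, and the next site was the optimal peak of rank 2917 at 19586228. It is shared by CG9330, 25 bp away, and CG9231, 225 bp away. The ratio was 7.96 at px and 6.41 at CG1888. It was lowest at larp, with 3.73, where an intronic summit at 28329375 ranked 722. That larp site ranked 309, 2730 and 561 in replicates 1, 2 and 3, so replicate 2 placed it far lower.

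Of the 6 other optimal summits in the px region, 5 lay in introns of px, at 22510958, 22511725, 22516102, 22538228 and 22540057, and ranked 975 to 3717. They stood in separate places, 3 within 3331 bp of the strong peak and the other 2 at 23939 and 25768 bp upstream of it. The px start site peak at 22562060 was the only one of the 15 without a summit within 150 bp in all 3 replicates. It ranked 1619 in replicate 1 and 2259 in replicate 3, and replicate 2 had none. In the CG1888 region the other optimal summits were 1 intergenic site at 9541740 (rank 1218), between CG1888 and brp, a gene of the presynaptic active zone, 1 in an exon of lncRNA:CR43651 at 9552881 (rank 2113) and 1 in a CG1888 intron at 9546597 (rank 2523), 588 bp from the strong peak. Outside larp, intergenic sites lay at 28336497 with rank 2172, at its upstream-most TSS, and at 28345481 with rank 2063.

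The pooled relaxed list added 68 weaker sites in the 6 regions, ranked 4928 to 29642, of which 15 lay within 500 bp of a TSS. CG14100 had 2, Ugalt 5, px 31, PNPase 3, CG1888 14 and larp 13. Per 10 kb these are 0.932, 2.20, 3.53, 1.26, 5.35 and 3.40, against a median of 2.77 over the 3476 other genes, with quartiles of 1.86 and 3.79. CG14100 and PNPase lay below the lower quartile and CG1888 above the upper one. Of the 14 weaker sites of CG1888, 4 lay in its 3′ UTR and 10 in intergenic sequence upstream, 5 of these beyond the microRNA gene mir-14. The relaxed lists hold background by design, so these entries show only where weak signal was listed.

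**Figure D4:**
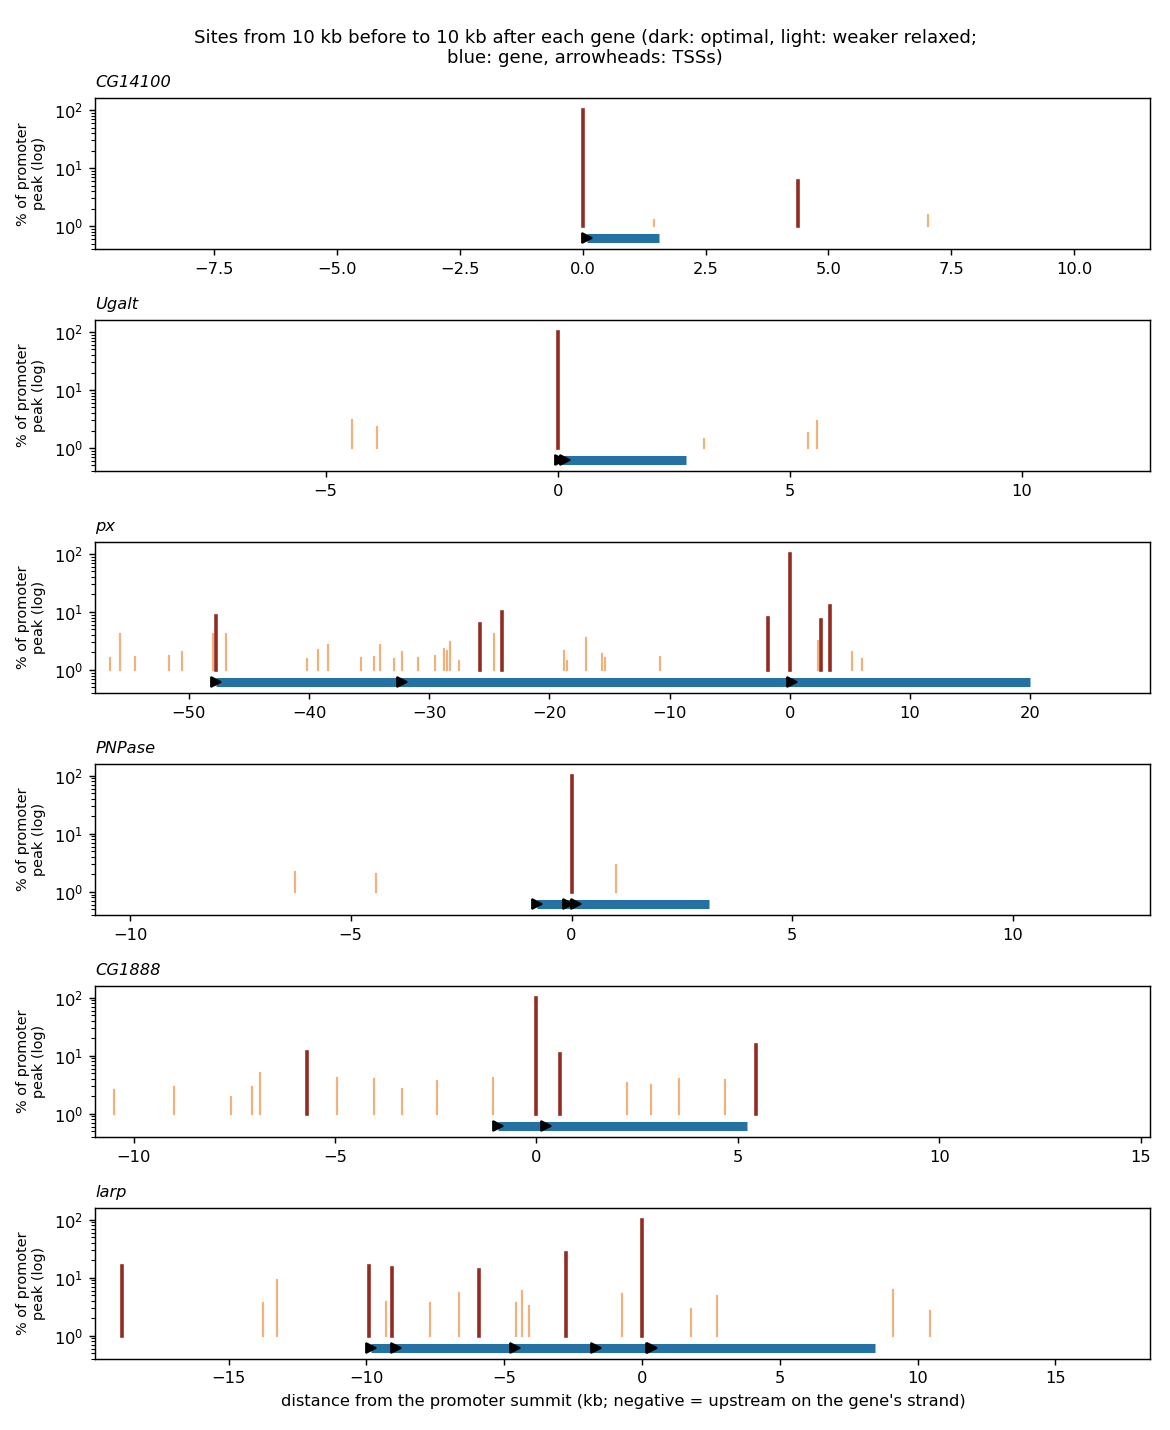
Optimal (dark) and weaker relaxed (light) sites in the 6 regions, drawn by distance from the promoter summit in kb along the strand of the gene, with height as percent of the promoter peak's signal on a log axis. Blue bars are the genes and arrowheads their TSSs. Ugalt and PNPase have no second optimal site, and px and larp have several upstream of the strong peak.

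Of 26 annotated genes with a TSS in the 6 regions, 5 had an optimal summit within 500 bp of a TSS (19.2%), against 20.7% of all 18164 genes. The 26 count mir-14, near CG1888, and the shorter non-coding entries annotated inside it separately, and none of these was bound. Of the 20 protein-coding ones, 3 were bound (15.0%), against 25% of all protein-coding genes. With 26 genes the share is not stable. It was 29.4% of 17 genes with 5 kb to either side, and 38.5% with a promoter distance of 1000 bp, against 24.2% of all genes at that distance. Of the genes added at 1000 bp, eIF2Bbeta and Gprk2 lay 680 and 576 bp from the chosen Ugalt and PNPase summits. The others were mir-14 and the entries inside it, reached by the summit at lncRNA:CR43651. The rise at 1000 bp thus partly follows from the choice of the peaks. In the strongest entries of replicates 1, 2 and 3 alone the share of bound flanking genes was 23.1%, 46.2% and 26.9%, against 20.5%, 20.8% and 19.9% of all genes. Leaving the 1000 bp setting aside, the direction of the difference from all genes still depends on the setting. The bound genes were CG9231 and CG9330 near CG14100, CG11362 at the upstream end of px, lncRNA:CR43651 near CG1888 and asRNA:CR46104 at the upstream end of larp. CG11362 shares the summit 5 bp from the upstream px TSS, 247 bp from its own, and asRNA:CR46104 shares that of the upstream larp TSS, 392 bp away. Only lncRNA:CR43651 therefore had a summit that lay within 500 bp of no other gene listed here, 37 bp from its TSS.

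Of the 12 nearest coding neighbours, 2 were bound (16.7%), CG9330 and CG11362, against the same 25% of all protein-coding genes. The ash1 gene, a Trithorax group histone methyltransferase gene, has its 3′ end 248 bp from the 5′ end of CG14100, on the same strand, so its TSS is 8138 bp from the summit. Lint-O lies 90 bp from the other end of Ugalt and CG4610 1 bp from that of px. Gcn2, a gene for an eIF2alpha kinase, overlaps the 3′ end of PNPase by 454 bp. None of ash1, Lint-O, CG4610 and Gcn2 had an optimal summit within 500 bp of a TSS. The same held for brp, Or45b, CG12516 and Gfat2, the neighbours of CG1888 and larp.

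Sequence words gave little in common among the 6 summits. Windows reaching 50 bp to either side of the summit were searched on both strands for 10 consensus words. Of those known from promoters of broadly expressed genes, DRE was searched as TATCGATA, its core as ATCGAT, the core of motif 1 as GGTCACAC and motif 7 as CATCNCTA or CAGCNCTA. The word of the insulator protein BEAF-32 was CGATA, and that of GAGA factor was GAGAGA. The E-box was searched as CAGCTG and the word of Zelda, an early activator of the zygotic genome, as CAGGTA. The TATA box was searched as TATAAA and the initiator, a word that overlaps start sites, as TCAGTT. Any DRE also holds the DRE core and the BEAF-32 word. At CG14100 the BEAF-32 word lay 4 bp from the summit, which reads TATCG on the printed strand and crosses the upstream edge of the capitals, and at CG1888 the initiator word lay 45.5 bp from it. The other 4 windows held none of the 10. That is 2 of 6, against 57.5% of the 1859 other promoter peaks without a divergent partner, 53.3% of all other optimal peaks, 38.0% of windows moved by 500 bp and 56.2% of windows centred on annotated start sites. DRE, DRE core, motif 1 core and motif 7 were in 0 of 6 windows, against 26.0% of the 1859 other peaks and 15.8% of start sites. The other peaks of similar strength held few of these words too. Besides the 6 genes and ph-p, 18 of the 25 strongest peaks remain, and 5 of these 18 windows held any of the 10 words (27.8%). DRE, DRE core, motif 1 core or motif 7 was in 1 of the 18 (5.56%), so the low counts are not particular to the 6 genes. No test was made with 6 windows, and a missing word says only that these letters are not in the window.

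The 10 words of 6 bases most enriched in the other optimal windows over windows moved by 500 bp, led by CGATAG (4.45 times), TATCGA (3.75 times) and ACACTG (3.47 times), were also in none of the 6 windows. At least 1 of them was in 48.5% of the 1859 other peaks, 20.5% of moved windows and 35.7% of start sites, and they were picked on the other optimal peaks. Of the other 18 windows among the 25 strongest peaks, 9 held at least 1 of them. No word of 8 bases was shared by 3 or more of the 6 windows, and 5 were shared by a pair of them, such as ATGCAGAA at CG14100 and CG1888. The windows were rich in A and T: G and C made up 29.7%, 33.7%, 30.7%, 32.7%, 39.6% and 33.7% in order of rank, with a median of 33.2%. The median was 41.6% over the 1859 other peaks, with a lower quartile of 34.7%, and only CG1888 lay above that quartile. Other strong peaks were mixed in G and C. Among the 25 strongest, the median was 27.2% over the 4 at divergent promoters, 36.6% over the 11 distal ones and 41.6% over the 3 at non-coding promoters. It was 38.6% over all other optimal peaks. The words differ in base composition, and the part of the low G and C content in the word counts was not tested.

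**Figure D5:**
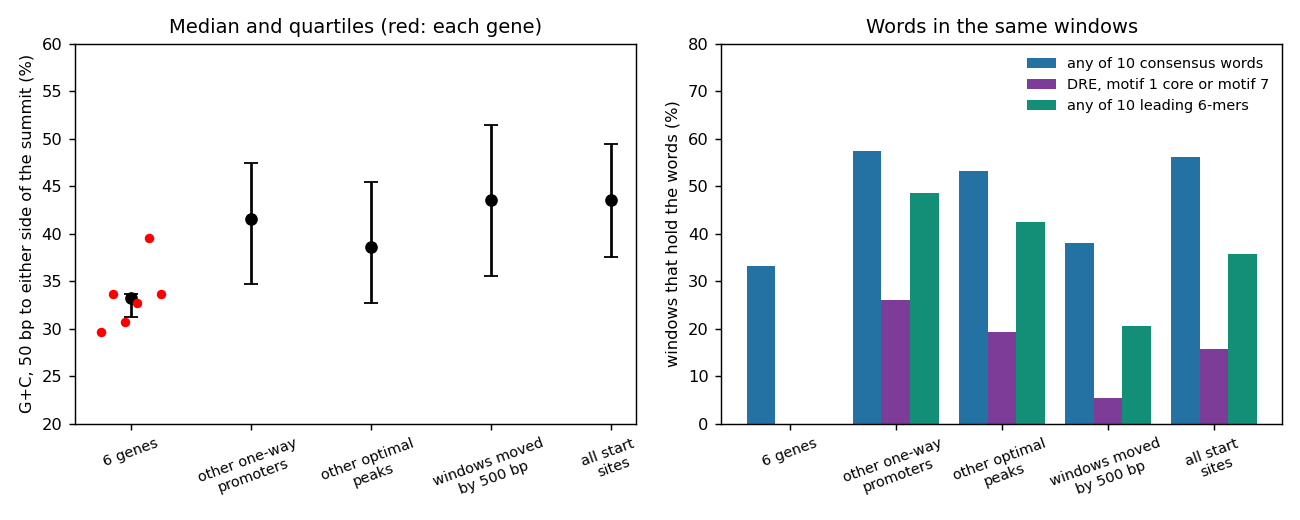
Left, G and C content of the windows around the summit (percent), with medians and quartiles in black and the 6 genes in red. Right, percent of windows that hold any of the 10 consensus words, any of DRE, DRE core, motif 1 core and motif 7, or any of the 10 enriched words of 6 bases. The 6 genes have a median of 33.2% G and C, and no window with a word of the last 2 kinds.

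Among the other coding promoters without a divergent partner, the peaks most like these by ranks in the 3 replicates were those of ph-p, mRpL41 and CG13921. The measure was the mean absolute difference in log2 rank from the median rank of the 6 genes, which was 5, 6 and 5 in replicates 1, 2 and 3. It was 0.39 for ph-p, with ranks of 6, 5 and 7. For mRpL41, a mitochondrial ribosomal protein gene, it was 2.50, with ranks of 33, 23 and 37. For CG13921 it was 2.55, with ranks of 35, 34 and 26.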

How the data were processed

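The authors deposited narrowPeak lists for dm6. Per the file headers and labels, they called relaxed lists on each replicate and on the pooled replicates with a control, and thresholded the optimal list by the irreproducible discovery rate. Which aligner, caller and threshold they used is not given in the sources used here, and the control was not analysed here. Signal is the deposited peak score of the authors' caller, compared within a list only. The −log10 q, also deposited by the authors, was at its highest value of 3.90 for 3935 optimal peaks and was used only as an alternative ranking. Genes came from the Ensembl release 115 annotation (BDGP6.54) and sequence from the matching Release 6 genome, and no peak ended beyond its chromosome arm.

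Summits were matched between lists within 150 bp. The search for words was checked on simulated windows and found 1000 of 1000 planted words. Python 3.11.15, numpy 2.4.6 and pandas 2.3.3 were used. Named genes are the 6 genes, bound genes and nearest coding neighbours in each region, the 3 promoters most alike in rank and the next 3 outside rank 25. The members and lists were chosen with earlier results of these data known. There are no read counts, so no counting interval is given.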

Additional observations from a re-analysis of the deposited data

How the results depend on the processing

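Of 40 alternatives over 6 results, 34 kept the value within 1.5 times the count or within its spread. Some of these could not move or repeat others. For the genes among the 25 strongest, the alternatives that left out a replicate used the limit of 100, which repeats another result. Those for the spread of replicate summits could not differ, because each replicate had only 1 summit within 150 bp. Ranking the optimal list by q put 0 of the 6 genes among the first 25, because most peaks share the highest q and tied peaks take their mean rank. Using the pooled relaxed list raised the summits in the 6 regions from 21 to 89, since it holds 30000 entries. The share of bound flanking genes rose from 19.2% to 38.5% with a promoter distance of 1000 bp and to 46.2% with the strongest entries of replicate 2 alone, while that of all genes went from 20.7% to 24.2% and 20.8%. At 1000 bp the added genes were eIF2Bbeta and Gprk2, near the chosen Ugalt and PNPase peaks, and mir-14 with the entries inside it. The cause of the rise in replicate 2 was not tested, and the SD of the share over the replicates was 12.4 percentage points. With windows of 100 or 150 bp to either side of the summit, 4 and 5 of the 6 genes held any of the 10 words, against 76.8% and 87.4% of other optimal peaks. DRE, DRE core, motif 1 core and motif 7 remained at 0 of 6, against 30.2% and 35.0% of other optimal peaks. The other peaks among the 25 strongest were not counted separately in these wider windows. Leaving out each replicate kept 6 genes among the 100 strongest of both others. No paired analysis was possible because there is 1 group. Unknown depth limits what a missing weaker site can show.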

Other observations

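A word of 8 bases noticed after its counts were seen, CTACGCCC or GGGCGTAG on the other strand, lay within 75 bp of the summit of both CG14100 (66.5 bp upstream, as gggcgtag near the start of the printed sequence) and CG1888 (59.5 bp downstream). It was in 2 of the 25 strongest optimal peaks (8.0%), 3 of the next 75 (4.0%), 1 of the 900 after those (0.111%), 16 of the remaining 3417 (0.468%) and 44 of 23581 windows at start sites (0.187%). The 2 among the 25 strongest are CG14100 and CG1888 themselves, so the 8.0% follows from the choice of the word. No trend with rank is read from it. The word was chosen for being shared, so no test was made.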
